A study of Mus musculus with 3 samples.

Results

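The baseline transcriptome of LNC, a malignant B-1 cell line, was read from the array labelled as the untreated control, 1 of 3 arrays in the series. LNC came from lymph node tissue of a New Zealand Black (NZB) mouse, 1 year old, and the untreated cells received no oligonucleotide. Whether the RNA came from 1 culture or several was not stated. The other 2 arrays held RNA of LNC cells given an IL-10 antisense oligonucleotide or a scrambled oligonucleotide at 20 µM, with RNA taken at 24 h, and they are not compared here. With 1 array of 1 cell line there is no replicate, so all values below describe this array, no test was run, and how far another culture of the line would differ is unknown. The number of arrays limits the precision.

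B-1 cells are a self-renewing B cell population of the body cavities that makes natural IgM, and in NZB mice they expand with age into a disease used as a model of human chronic lymphocytic leukaemia. They are known as a source of interleukin 10 (IL-10), a cytokine that dampens inflammation and that has been described as an autocrine growth factor of malignant B-1 cells. A B cell is recognised by its antigen receptor, in which immunoglobulin chains are paired with the signalling chains Cd79a and Cd79b, by the surface protein CD20, and by major histocompatibility complex (MHC) class II molecules that present antigen to T cells.

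The array was chosen by its label, and all 12588 probe sets that are not array controls were ranked by intensity within it, rank 1 being the brightest. A probe set is a group of short probes for 1 transcript, and its deposited value is an intensity in arbitrary units that falls below 0 when signal does not exceed the background estimate. A noise floor of 491.9 was set at 2 robust standard deviations of the values below 0. By this floor 5674 probe sets, 45.1% of all, were above noise, while 568 values lay as far below 0. Probe sets at or below the floor are called background, those in the top 10% of ranks high, those in the rest of the top 25% intermediate and the others low. The top 10% ended at 5128.8 just inside and 5120.2 just outside, and the top 25% at 1664.8 and 1664.7. A rank orders the brightness of probe sets, which depends on the probes as well as on the RNA, so it is not an order of RNA amounts between genes.

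Exactly 1 gene symbol was listed for 10276 of these probe sets, which stand for 8220 genes. Each gene was represented by its brightest probe set. On this basis 52.5% of all genes were above the floor, 12.0% were high and 47.5% were at background, and these shares are the background for every count below. Of 15 control probe sets for Bacillus genes, which mouse cells lack, none exceeded the floor, and they read from -315.5 to 421.7. Of 4 control probe sets for yeast genes 1 exceeded it, at 551, and of 15 controls for the sense strand 11 did, up to 3536, so a value above the floor is not by itself evidence of the named transcript. The control probe sets for actin, Gapdh and the added Cre transcript all read between 157461 and 171230.1, close to the highest value on the array, 185274.

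Background does not mean absence on this array. Of 34 ribosomal protein genes, which every growing cell uses, 12 were at background, among them Rps14 at -107, Rps20 at 188 and Rpl32 at 73. Of 276 genes with a high probe set and at least 1 other, 131 had another probe set at background. Over all 1609 genes with several probe sets, 717 had some above the floor and some below it, and where all were above it the brightest exceeded the dimmest by a median of 2.29-fold. The array is the first version of its design, which is known to carry probe sets built on wrong sequence. Which ones these are was not tested.

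The 6 markers named for this cell type were all in the top 10%. They were chosen with earlier results of these data known, so this count is a description and cannot test what the cells are. Ighm, the µ heavy chain of IgM, read 155162 at rank 8. Cd74, the invariant chain that escorts class II molecules, read 81616 at rank 81. Ms4a1, which encodes CD20, had a pair of probe sets, at 44222 and 18141. These markers sat among the ribosomal proteins and translation factors that fill the top of the array. Cd79a, the immunoglobulin-associated α chain, read 27780 at rank 209, and Irf4, a transcription factor that rises with B cell activation and plasma cell differentiation, read 15731 at rank 358. Il10 read 5162 at rank 1251, just inside the boundary of the top 10%. Ranked among the 8220 genes rather than among probe sets, Il10 was 980th and outside the top 10%, which then ended at 6084, and the other 5 markers stayed inside it.

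**Figure D1:**
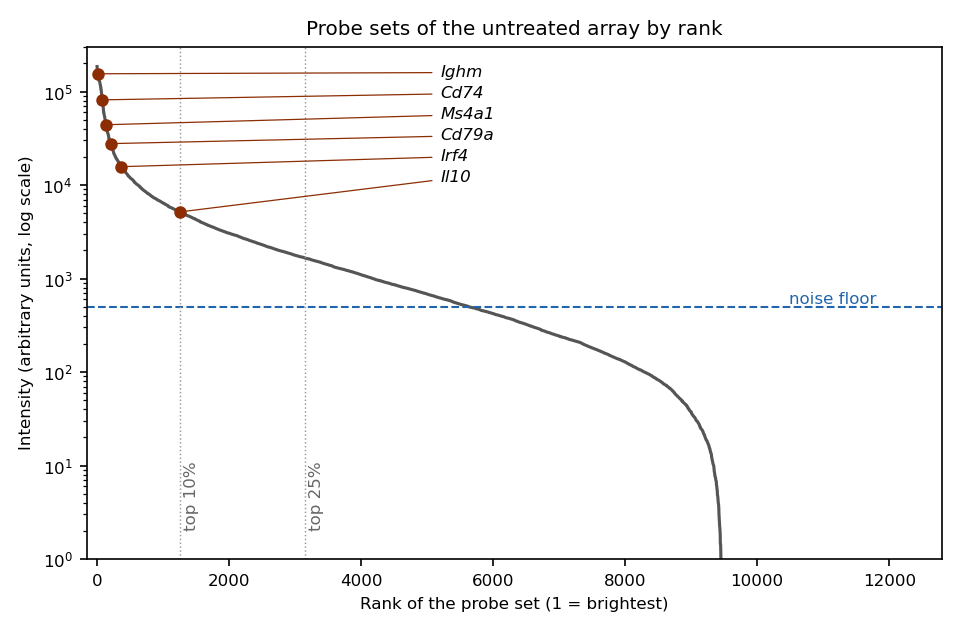
Intensity (log scale) of each probe set of the untreated array against its rank, for values above 0. Circles mark the brightest probe set of 6 marker genes, from Ighm at rank 8 to Il10 at rank 1251 at the edge of the top 10%, and the dashed line is the noise floor of 491.9.

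Probe sets assigned to Ighm disagreed, and 10 of the 16 were at background. After the brightest came 80217 and 13296, then 1998, 1112 and 1022, and the dimmest read -516. Which part of the chain each of them targets was not tested. Among other constant regions, Ighg3 (γ3) had 7 probe sets that read from -176 to 5207, while Igha (α) read 307 and Ighd (δ) 426 at most. Both are below the floor. Of the light chains, the κ locus symbol Igk had a pair of probe sets at background, at 295 and 199, and Iglc1 (λ1) was low at 618, while Igkv6-23 and Igkv4-70, κ variable genes, were among the 25 brightest probe sets with 1 symbol. Of the 7 genes measured in the immunoglobulin list, 2 were high and 3 at background. Jchain, which joins IgM into pentamers, read 1784 at rank 2992.

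The B cell surface proteins were mostly bright. Of 26 measured, 19 were above the floor and 8 were high, with a median percentile of 77.0 against 57.3 over all genes. Besides CD20 and Cd79a, the sialoglycoprotein gene Cd24a read 113828 and Cd52, a small lymphocyte glycoprotein, read 49535. The tetraspanins Cd37, Cd81 and Cd53 read 18367, 16678 and 11614. Cd40, through which T cells help B cells, was high at 6235, and the activation marker Cd83 read 4400 and 2216 in its probe sets. The second signalling chain of the receptor, Cd79b, was low at 1524. At background were Cd22, a lectin that restrains receptor signalling, at 143, Cr2, the complement receptor CD21, at 97, Fcer2a, the IgE receptor CD23, at 378, and Ly6d at -1405. Ptprc, which encodes CD45 and is carried by all B cells, read 1756, 292 and -75 in its probe sets, so only the first was above the floor.

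Of the transcription factors of B cells, 13 of 16 measured were above the floor and 5 were high. The high ones were Spib at 15331, Id3 at 10269, Pou2af1 at 10034, Pax5 at 8236 and Mef2c at 6729. Pax5, which commits cells to the B lineage, read -253 in a second probe set. Spib, an ETS factor, read 4611 in its second, which is intermediate. Mef2c was high only in a suffixed probe set and also read 4309 and 2908, both intermediate, and 964, which is low. Foxp1 at 5107, Pou2f2 at 4625, Ikzf1 at 3399 and Ebf1 at 1813 were intermediate, and Spi1 (PU.1) at 1636 and Irf8 at 967 were low. A second probe set of Ikzf1 was at background, at 288.5. Bcl6, the repressor of germinal centre cells, was at background with 393, and so were Ets1 with 236 and Klf2 with -902.

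Genes of antibody-secreting cells were split. Xbp1, which expands the secretory apparatus, was high at 6314 beside Irf4, and Ell2, an elongation factor for secretory immunoglobulin, read 4023, 1128 and 275 in its probe sets. Prdm1, which encodes Blimp-1, the factor that ends the B cell programme, read 587, just above the floor. Sdc1, the plasma cell marker CD138, read -469 and Tnfrsf17, the receptor BCMA, 391, both at background. Of 8 measured genes of this list, 5 were above the floor and 2 high.

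Genes of B cell progenitors were mostly at background, 8 of 12 measured. Rag2 read -79, Dntt, which adds bases at joined gene segments, 22, Vpreb1 of the surrogate light chain -43, and the IL-7 receptor gene Il7r 232. Flt3, a receptor of early progenitors, was an exception at 7402 and 2092, in probe sets whose suffix (_s or _r) marks that they may bind several transcripts or met fewer design rules. Vpreb3 read 2343 and was intermediate, and Igll1, the other surrogate light chain gene, read 624 and 392, on either side of the floor. Rag1 read 891 in a family probe set and 26 in its other.

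Genes used to tell B-1 from other B cells gave little signal. Of 8 measured, 7 were at background and Plac8 was low at 1518. Cd5, the T cell glycoprotein that B-1a cells carry, read 113, and Spn, which encodes CD43, read -53. Cd9 read -183, Itgam (CD11b) -70 and Il5ra, the receptor chain for interleukin 5, 97. Each of these 5 genes rests on a single probe set. On this array the B-1 label thus had no signal above the floor from Cd5 or Spn, and whether their probe sets can report the RNA was not tested.

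**Figure D2:**
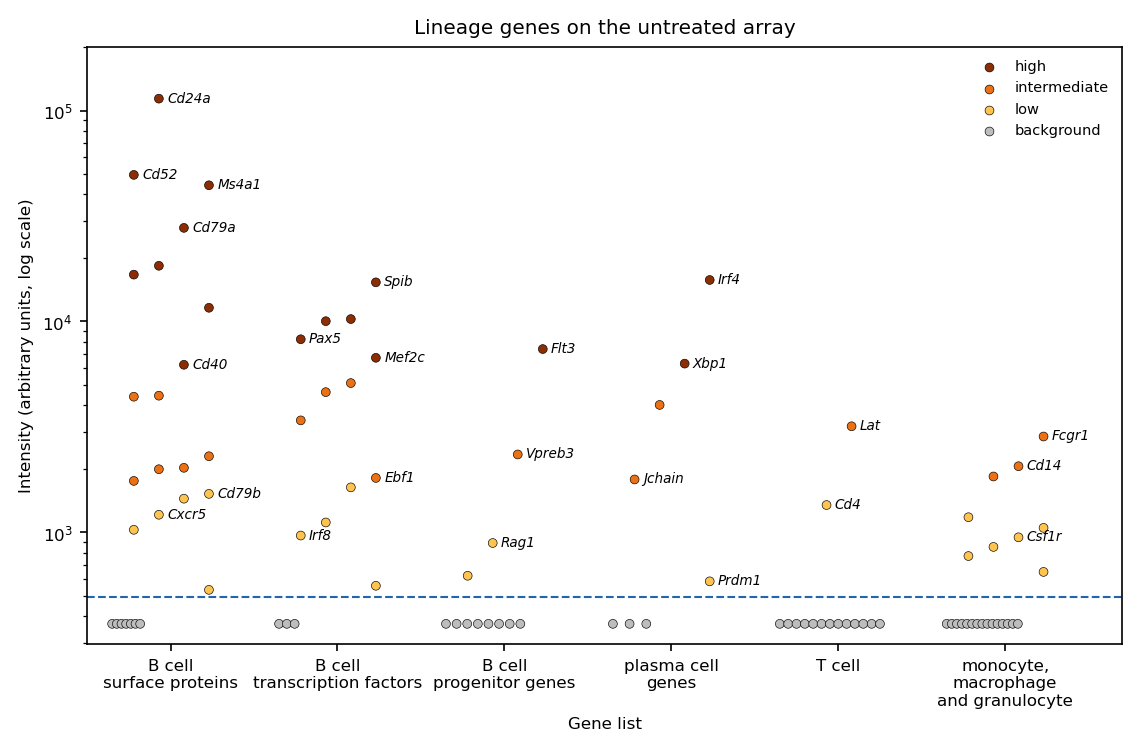
Intensity (log scale) of the brightest probe set of each measured gene in 6 lists on the untreated array, coloured by band. The dashed line is the noise floor of 491.9, and all genes at or below it are drawn at 1 height under the line. B cell lists reach from the floor to 113828 (Cd24a), whereas no gene of the T cell and myeloid lists exceeds 3187 (Lat).

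Signalling proteins below the antigen receptor were well represented. Of 21 measured, 17 were above the floor and 7 were high, with a median percentile of 87.0. Rac2, a GTPase of blood cells, read 42445, Prkcb, the protein kinase C that links the receptor to NF-kB, read 29624, and Ptpn6, the phosphatase SHP-1, read 20847. The adaptor Blnk read 12780 and 11426 in its probe sets. The kinase Syk read 7132 in one probe set and -352 in another, Btk read 3834 and was intermediate, and Blk read 2052 and 580. Plcg2, the phospholipase these kinases activate, read 4391, and Vav1 4469, 3827 and 378 in its probe sets. At background were Fyn at 277, Sos1 at 274, Lcp2, the SLP-76 adaptor of T cells, at 171, and Nfatc2 at 69. Nfatc1 was low at 1151.

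The MHC class II pathway was also bright. Of 14 measured genes 12 were above the floor and 6 were high. The chains H2-Aa, H2-Eb1 and H2-Ea read 23216, 7829 and 5167, and H2-Ab1 read 4638, at the upper end of the intermediate band. The lysosomal protease Ctss, which trims the invariant chain, read 14241, and Ifi30, a thiol reductase of antigen processing, 8849. Of the proteins that edit the bound peptide, H2-Oa read 2912, H2-DMa 1749, H2-Ob 808 and H2-DMb1 784. Ciita, the coactivator on which class II transcription depends, read 350 and was at background, and so was H2-DMb2 at 222.

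Class II promoters are known for a short conserved module whose last element, the Y box, holds an inverted CCAAT. The 8 letters CTGATTGG were searched on both strands of 300-base promoters, which run from 250 bases before to 50 after the annotated start, in RefSeq sequence of build GRCm38.p6. Of 10 class II pathway genes with a promoter in that table, 3 held the letters. The share was 5.56% over the 6545 genes on the array with a promoter and 4.31% over all 27025 promoters. Every such match holds CCAAT on its other strand. CCAAT alone was in 7 of the 10, in 38.33% of the 6545 and in 37.92% of all promoters. The 3 with CTGATTGG are printed because they belong to genes read above the floor here, at ranks 246, 804 and 2094. Each is on chromosome 17, at chr17:34287774-34288073 on the minus strand for H2-Aa, chr17:34305617-34305916 on the plus strand for H2-Eb1 and chr17:34092129-34092428 on the plus strand for H2-Oa, and capitals mark the searched letters.
H2-Aa: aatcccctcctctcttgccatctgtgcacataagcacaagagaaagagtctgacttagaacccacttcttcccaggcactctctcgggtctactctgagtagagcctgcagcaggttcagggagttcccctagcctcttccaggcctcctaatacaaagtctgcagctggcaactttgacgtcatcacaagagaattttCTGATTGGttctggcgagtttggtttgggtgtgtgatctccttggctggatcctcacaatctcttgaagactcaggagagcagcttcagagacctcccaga
H2-Eb1: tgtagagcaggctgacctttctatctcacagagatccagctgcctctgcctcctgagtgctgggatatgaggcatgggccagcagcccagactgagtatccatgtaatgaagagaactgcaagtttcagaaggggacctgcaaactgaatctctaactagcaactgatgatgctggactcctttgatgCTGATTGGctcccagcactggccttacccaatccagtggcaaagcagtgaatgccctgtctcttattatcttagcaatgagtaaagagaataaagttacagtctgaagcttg
H2-Oa: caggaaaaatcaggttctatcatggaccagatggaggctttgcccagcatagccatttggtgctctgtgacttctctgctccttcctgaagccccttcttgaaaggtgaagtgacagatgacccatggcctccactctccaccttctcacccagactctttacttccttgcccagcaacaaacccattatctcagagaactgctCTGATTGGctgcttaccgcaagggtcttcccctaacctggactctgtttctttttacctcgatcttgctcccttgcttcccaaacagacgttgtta

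In all 3 the letters read in the direction of the gene, and they begin 51 bases before the annotated start in H2-Aa, 62 in H2-Eb1 and 46 in H2-Oa. The reference is the C57BL/6J strain, and the sequence of the NZB line was not read. A match is a description of letters and not a binding site.

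The MHC class I pathway had 13 of 15 measured genes above the floor and 8 high. The heavy chains H2-K1 and H2-D1 read 43819 and 43526 in family probe sets that can bind related chains, and B2m, their light chain, read 24622. The only H2-K1 probe set without a suffix was at background, at 210. The immunoproteasome subunits Psmb8, Psmb9 and Psmb10 read 28837, 9015 and 7264, and the loading protein tapasin (Tapbp) 13225. The peptide transporter genes Tap1 and Tap2 read 3095 and 1951, both intermediate. Calr, a chaperone of nearly every cell, read 159 and Psme2 293, at background. Of 14 class I pathway genes with a promoter, 5 held the letters of the Y box, H2-K1 and H2-D1 among them. The share was 5.56% over the 6545 genes on the array with a promoter. By band it was 6.58% of high, 7.98% of intermediate, 6.54% of low and 3.82% of background promoters.

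Genes of other cell types were mostly at background. Of 133 such genes measured, 102 were at background and 31, or 23.3%, were above the floor against 52.5% of all genes. In the T cell list 13 of 15 were at background, and the defining chains Cd3d, Cd3g and Cd3e read -29, -36 and -1018. Lat, an adaptor of T cell receptor signalling, read 3187 and Cd4 1349. In the NK and cytotoxic list 9 of 10 were at background, with Ncr1 at -29, Gzma at -91 and Prf1 at -221. The fibroblast list had 3 of 19 above the floor, led by Bgn at 1406, and Col1a2 read -688. The endothelial and epithelial lists had 2 of 11 each, with Eng at 1631 and Cdh1 at 1297 the brightest.

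Myeloid genes gave more scattered signal, with 9 of 24 above the floor and none high. Fcgr1, a high-affinity Fc receptor, read 2850 in a probe set that may bind several transcripts and -949 in its other, and Csf3r read 1842, -353 and -990. Cd14 read 2060 and Csf1r 948 and 190. The granule genes Camp at 1051 and Elane at 773, the macrophage genes Cd68 at 854 and Msr1 at 650, and the myeloid factor Cebpa at 1181 were low, with a second probe set of Cd68 and of Msr1 at background. Other granule and macrophage genes, Lyz2 at -131, Mpo at 328, S100a8 at 209, S100a9 at -250 and Adgre1 at -184 were at background. In the erythroid and megakaryocyte list 6 of 15 were above the floor. Hbb-bh1, an embryonic globin, read 5314 in one probe set and -430 in the other, and Klf1, an erythroid transcription factor, was intermediate at 2625. The red cell membrane genes Ank1 and Slc4a1 read 1642 and 759 at most and the globins Hba-a1 and Hbb-y 1627 and 1621, all low. Gata1 at -515 and Alas2 at -74 were at background. Actc1, cardiac actin, read 12908 in a family probe set and 88 in its other, and Acta1 and Myh6 read -367 and -156. The part of cross-binding in these single bright values was not tested.

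Among the cytokines a few genes stood out against a list at background. Of 20 interleukin genes measured, 15 were at background and 2 were high, Il10 and Ebi3. Ebi3, a subunit shared by interleukins 27 and 35, read 14451 at rank 409. Its partner Il12a read 260, at background, and so did Il12b at 102. Il16 at 1084, Il15 at 653 and Il5 at 595 were low. Il6, a growth factor of plasma cells, read -130, Il4 315 at most, Il2 -181, Il7 -20 and Il1b -243. Of 7 interferon genes, Ifna5 alone was above the floor, at 966 in a family probe set.

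Ccl22, a chemokine that attracts cells bearing CCR4, read 46634 at rank 130. Of the 24 chemokine genes measured, 21 were at background, including Ccl17, which signals through the same receptor, at -1493. Cxcl12 read 763 and Ccl8 644, and Ccl3, Ccl4 and Ccl5 read 73, -1098 and -92. The other probe sets of Cxcl12 were at background, at 353.8, 74.9 and -246.5. Ccl22 rests on 1 probe set, without a suffix. No second chemokine was intermediate or high.

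Of 11 ligands of the tumour necrosis factor (TNF) family, Ltb was high at 14476 and Lta intermediate at 4990 and 180 in its probe sets. Together they form the lymphotoxin heterotrimer that organises lymphoid tissue. Tnfsf9 read 1210, Tnf 886 and Cd70 749, all low. Cd40lg, the ligand of activated T cells, read -389 and Fasl -634. Among growth factors, 12 of 26 were above the floor and 2 were high, Hdgf at 19641 in a family probe set and Tgfb1 at 5404. Igf1 read 2925 and -136, Pdgfa 4209, and Csf2 -269. Mif, which most cells make, read 137 and -536.

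Cytokine receptors were intermediate at most. Of 38 cytokine receptor chains measured none was high and 24 were at background. The IL-10 receptor chains read 2713 for Il10rb, at rank 2207, and -274 for Il10ra, the chain that binds the cytokine. Il17ra read 2969 and 1960, Csf2rb, the common β chain, 1989, Il4ra 1190, Il6ra 869, and Il6st 514 and 7.5 in its probe sets. Il5ra at 97 and Il7r at 232 were at background, and so were Ifnar1 at -539 and Ifngr2 at 132, which nearly all cells carry. In the TNF receptor list, which also holds the adaptors inside the cell, 9 of 20 were above the floor. The receptor Cd40 was the high one. The adaptors Traf4 at 3062 and Traf2 at 2188 were intermediate. The receptor Cd27 at 529 and the adaptor Fadd at 545 were just above the floor. A second probe set of Cd27 was at background, at -287. Fas read -28 and Tnfrsf1a -267.

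Chemokine receptors were at best low, 5 of 15. Cxcr5, which draws B cells into follicles, read 1213, Cxcr3 1162, Ccr6 900, Cxcr4 535 and Cx3cr1 514, and Ccr7 was at background with 475. Ccr4, the receptor for Ccl22, read -50. In the list of Toll-like receptors and their adaptor and accessory proteins 6 of 8 were above the floor, none of them a Toll-like receptor. The accessory protein Ly86, also called MD-1, was high at 10329, and its partner Cd180 (RP105) was low at 1446. Irak1 read 2436 and Myd88 1530, whereas the receptors Tlr6 and Tlr7 were at background, at 257 and -59.

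**Figure D3:**
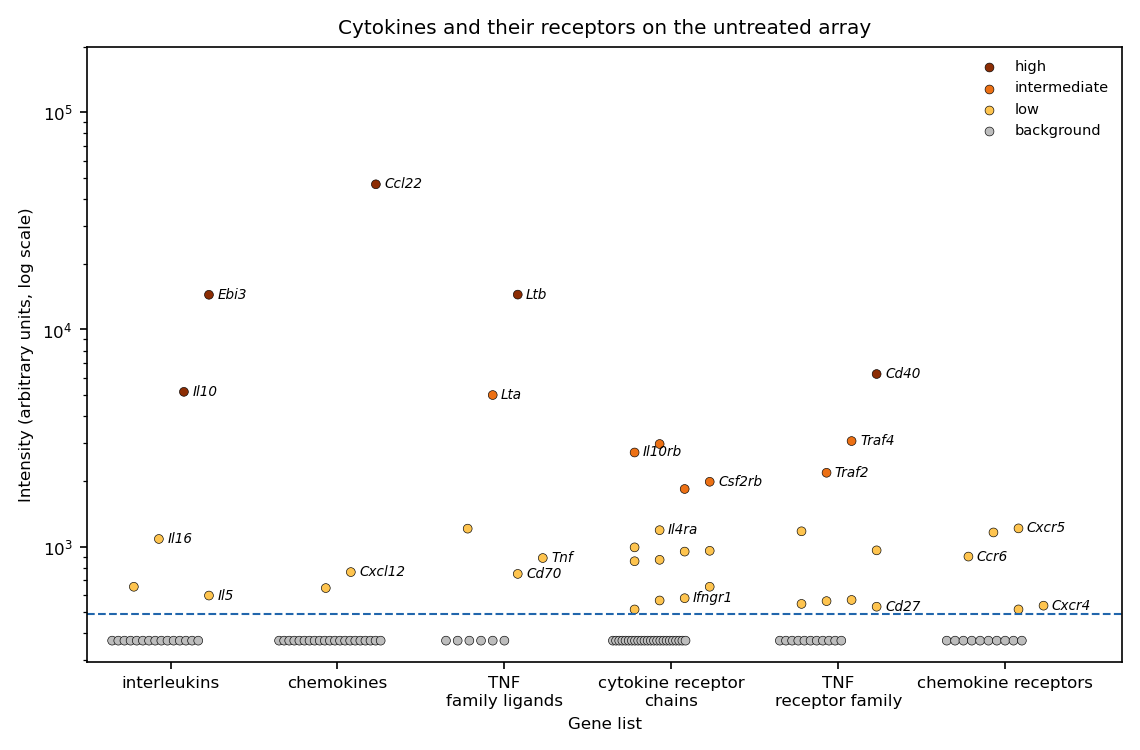
Intensity (log scale) of the brightest probe set of each measured gene in 6 lists of cytokines and receptors on the untreated array, coloured by band, with the noise floor of 491.9 dashed and all genes at or below it drawn at 1 height. Ccl22 (46634), Ltb (14476), Ebi3 (14451), Cd40 (6235) and Il10 (5162) are the high genes, and no cytokine receptor chain exceeds 2969.

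Kinases and transcription factors downstream of cytokine receptors were intermediate or lower. Of 15 measured, 9 were above the floor and none was high. Stat3, which relays IL-10, read 4186 and 2540 in its probe sets, Stat6 read 2947 and Stat5a 2068 and 1073. Jak1 read 2520 and Jak3 2328, while Jak2 read 390 and -6 and Tyk2 -67. Of the feedback inhibitors, Socs1 read 722 and Cish 792, both low, and Socs3 read -598.

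In the NF-kB list 9 of 11 were above the floor. Nfkbia, the inhibitor that NF-kB itself induces, was high in both probe sets, at 13166 and 8185. Rela read 5098 and 394, Nfkbib 3179, Nfkb2 1889 and Relb 1116 and 88. Rel, the subunit prominent in lymphocytes, read 85 and Tnfaip3, another induced inhibitor, -18.

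Apoptosis regulators of both directions were above the floor, 21 of 29, with 6 high. Of those that protect, Mcl1 read 11613, Birc5 8740, Cflar 3034, Birc2 2944, Bcl2 2769 in its brightest of 3 probe sets and Bcl2l1 (Bcl-xL) 1282. Of those that kill, Bid read 9575, Bak1 8703, Casp4 8216, Casp1 5288, Apaf1 2088 and Bcl2l11 (Bim) 1773. Bcl2 also read 443 and -363, and Bcl2l1 -312. Xiap at 217, Bad at 236 and Diablo at 142 were at background.

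Among 45 proto-oncogenes and tumour suppressors 29 were above the floor, 3 of them high. Jund read 45306, Nras 7515 and -212, and the kinase Pim1 6132 and 916. Myc read 4455 at rank 1449 and its partner Max 4528, both in the intermediate band, while Mycn and Mycl read 7 and 347. Mybl2, a factor of cycling cells, read 3917 and -169 in its probe sets, Lmo2 3525, Pim2 3350 and Akt1 2259. Fos at 257, Egr2 at 280, Notch1 at -490 and Wt1 at 102 were at background. Tert, the telomerase subunit, read 798 and was low.

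The growth class, the brightest of the 6 classes of lists, holds genes of division and chromatin and also of protein synthesis, proteasome and chaperones. Of its 261 measured genes, 211 or 80.8% were above the floor and 128 were high. The high ones were 24 of proteasome, 20 ribosomal proteins, 17 chaperones and 15 translation factors. The others were 18 of chromatin, 15 of DNA replication, 12 of mitosis, 5 cyclins or their kinases, and 2 of CDK inhibitors and Rb family. In the list of cyclins and cyclin-dependent kinases 15 of 18 were above the floor. Cdk1, which drives mitosis, read 21601, the G1 cyclin Ccnd2 10198, its kinase Cdk4 8815 and the mitotic cyclin Ccnb2 9942. A second probe set of Cdk4 was at background, at -54. Ccnd1, often absent from lymphocytes, read 3179. Ccna2 read 3673, Ccne1 2753 and Cdk2 3011, all intermediate. Of the inhibitors, Cdkn1b (p27) was high at 9810 and Cdkn1a (p21) low at 961, but their other probe sets were at background, at 389 and 324. Cdkn2a, Cdkn2b and Cdkn2c read 165, 111 and -919. Rb1 read 902 and E2f1 440.

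DNA replication genes were above the floor in 33 of 39 cases and high in 15. The helicase subunits Mcm5, Mcm7, Mcm4, Mcm3 and Mcm2 read 46231, 19049, 7219, 6092 and 4678, and the same complex's Mcm6 read 25. Pcna, the sliding clamp, read 28152, and the ribonucleotide reductase genes Rrm1 and Rrm2 read 14834 and 6834. Second probe sets of Mcm3 and Rrm1 were at background, at -347 and -44. Gmnn, which blocks a new round of licensing, read -742 and Dut 158. Of 33 mitosis genes 31 were above the floor and 12 high. The checkpoint gene Bub3 read 28363, securin (Pttg1) 17767, Cdc20 13378, Plk1 9811, Mki67, which encodes the proliferation antigen Ki-67, 6569, and Aurka 4371. Bub3 and Pttg1 each had another probe set at background, at 197 and 346. Ube2c at -151 and Cenpe at 136 were at background.

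Chromatin genes were bright, with 25 of 29 above the floor and 18 high. Hmgn1, Cbx3, H2az1 and Hmgb2 read 52985, 37554, 37480 and 35582. Ezh2, the methyltransferase of Polycomb, read 13594, and its partners Eed and Suz12 read 6809 and 4234. Suz12 also read 583 and 417. Dnmt1, which copies DNA methylation, read 7272 and -273 in its probe sets, and Dnmt3a 2260, 493 and 114. Hdac2 and Hdac3 read 328 and 86, whereas Hdac1 read 4220.

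Protein synthesis filled the top of the array. Of the 100 brightest probe sets, 43 carried the symbol of a ribosomal protein gene, alone or with others, and 10 that of an immunoglobulin gene, and 46 of the 100 had exactly 1 symbol. Rps10 at 175664, Rps18 at 161628, Eef1a1, the elongation factor that delivers aminoacyl-tRNA, at 156269 and Ighm led the probe sets with 1 symbol. Among the 25 brightest of these, 14 were of ribosomal proteins and 3 of immunoglobulins, namely Ighm and the κ variable genes Igkv6-23 at 146160.5 and Igkv4-70 at 110395.0. Others were Cd24a, Tpt1 at 134136, Npm1, a nucleolar chaperone, at 125817, Ybx1 at 107579 and Ran at 105357. In the ribosomal list 20 of 34 genes were high and 12 at background, with few between. Translation factors were above the floor in 27 of 31 cases, with Eef2 at 75689 and Pabpc1 at 78133, while Eif5a read -756 and Eif4e, the cap-binding protein, 246.

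Proteasome genes were above the floor in 28 of 30 cases and high in 24, a median percentile of 94.8. Psma2 read 35881, and Psmb1 read 32090, 26892 and 177 in its probe sets. Psmd2 and Psmc5 read 408 and 376, just under the floor. Chaperones were split, with 17 of 34 high and 9 at background. Cct4 read 56478 and Cct5 35714 while Cct7, Cct8 and Cct6a of the same ring complex read -136, 107 and -161. Hsp90aa1 read 49280, Hspa8 43096 and Hspa5 (BiP) of the endoplasmic reticulum 26540. The stress-induced Hspa1a and Hspa1b read 78 and 51 and Hmox1 -868.

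Metabolic genes followed. The respiratory chain and ATP synthase list had 46 of 51 above the floor and 33 high, with Cox6a1 at 40941, Cyc1 at 36290 and Atp5a1 at 35232. The muscle and heart isoforms Cox6a2, Cox8b and Cox7a1 read -854, -35 and 505. Of 21 genes of the tricarboxylic acid cycle 16 were above the floor and 10 high, led by Mdh2 at 58909. Idh2 read -608 and Sdha 438, though Sdhb and Sdhd of the same complex read 11283 and 18705.

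In glycolysis 16 of 20 were above the floor and 6 high. Ldha, which turns pyruvate into lactate, read 72027, Hk1, a hexokinase, 68423, Tpi1 57053, Pkm 56024 and Pgk1 30253. Hk2, the inducible hexokinase, read 1782 and -544 in its probe sets, and Ldhb 1499. Aldoa and Pgam1 were low, at 793 and 584, and a second probe set of Aldoa was at background, at 161.5. The glucose transporter Slc2a1 read 466, Slc2a3 1305 and 30 in its probe sets, and the lactate exporter Slc16a1 307. Of amino acid transporters, the paired chains Slc3a2 and Slc7a5 were high at 17154 and 13280, and Slc1a5 and Slc7a11 were at background with 409 and -10.

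Nucleotide synthesis and the pentose phosphate pathway had 25 of 28 above the floor and 12 high. Nme2 read 38330, the folate enzyme Mthfd2 13529, transketolase (Tkt) 13026 and Cad, the first enzyme complex of pyrimidine synthesis, 4081. Odc1, the first enzyme of polyamine synthesis, read 1530, and Srm, which makes spermidine, 13105. In lipid synthesis 20 of 27 were above the floor and 7 high. The desaturases Scd2 and Scd1 read 37657 and 14469, and Fdps of the mevalonate pathway 21332 and 355.5 in its probe sets. Srebf1, a transcription factor of lipid synthesis genes, read 5251, while Acly and Lss read -140 and -134.

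Iron and redox genes were above the floor in 23 of 32 cases. Txn1, the main thioredoxin, read 73151, Sod1 27705, ferritin heavy chain (Fth1) 20775 and the transferrin receptor Tfrc 8578. Second probe sets of Fth1 and Tfrc read 302 and 751. Metallothionein Mt2 read 4660 and Mt1 -303. Genes of liver, fat and endocrine metabolism were the counterpart, with 16 of 26 at background and none high. Fabp1, Cyp7a1, Arg1 and Ins2 read -264, -73, -91 and -1. Cel, a lipase of pancreas, was the brightest at 1896.

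**Figure D4:**
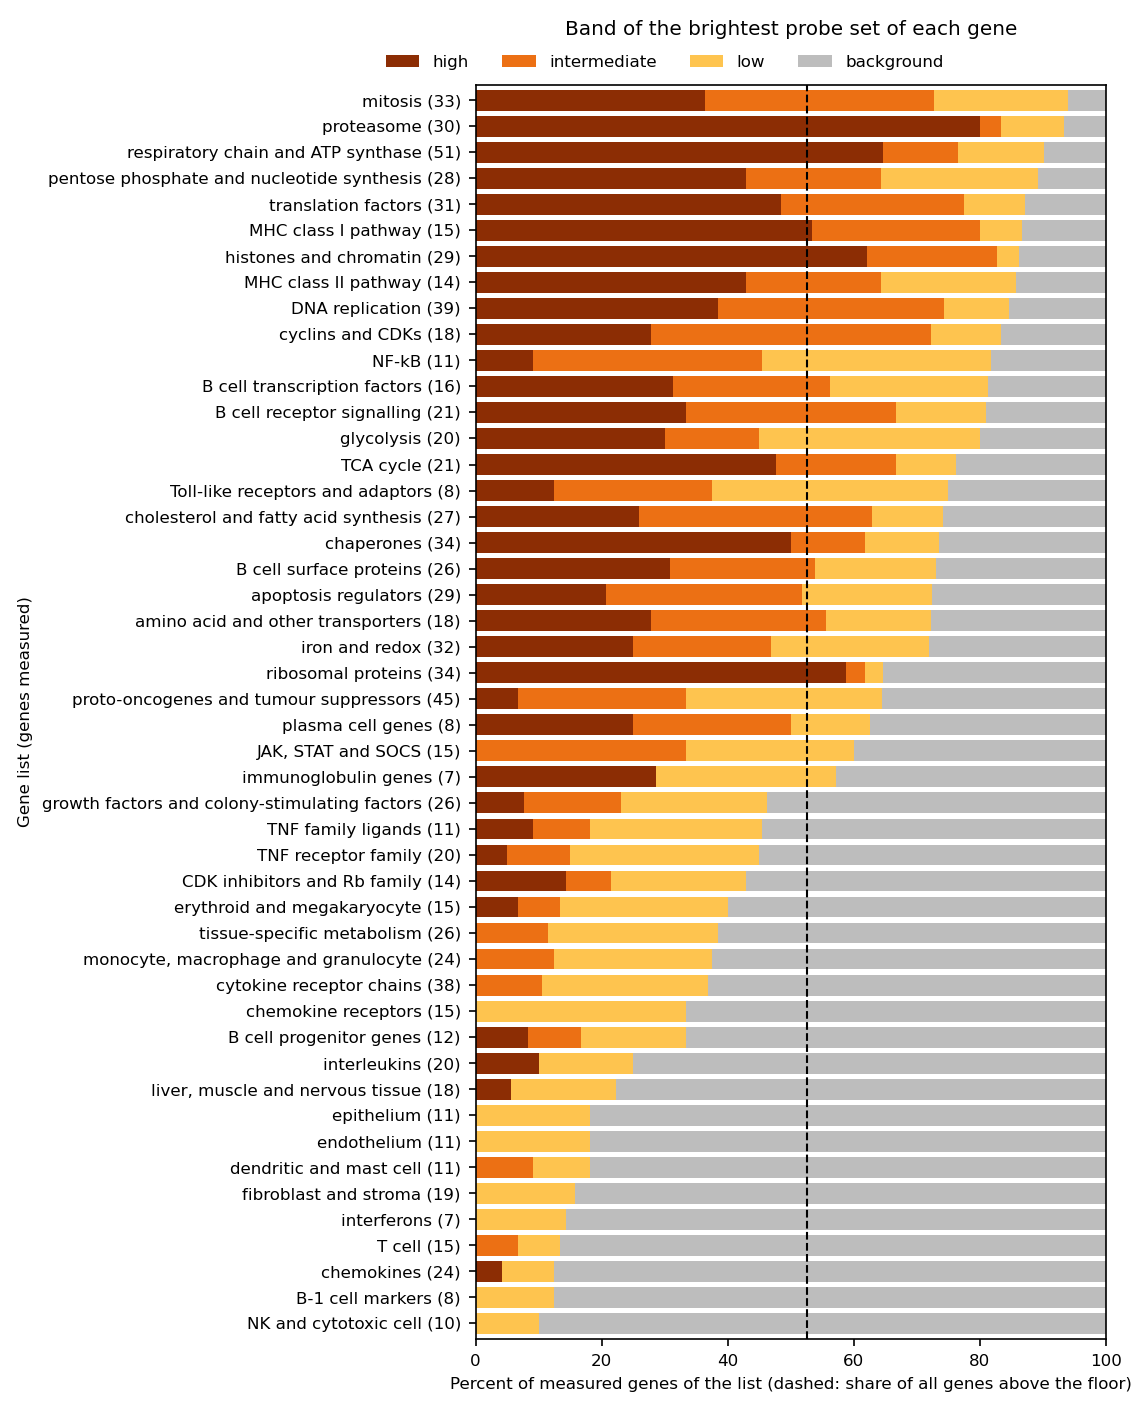
Share of the measured genes of 48 lists in each band on the untreated array, with the number measured in brackets and lists ordered by the share above the floor. The dashed line is the 52.5% of all 8220 genes above the floor. Most lists of division and those of proteasome and respiration lie above it, and lists of other cell types and of most cytokines below. Also below are, among others, B-1 cell markers (12.5%), B cell progenitor genes (33.3%), and CDK inhibitors and Rb family (42.9%).

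Promoter sequence, which the ranking did not use, differed in composition between the bands. Of the genes with 1 symbol, 6545 had a promoter in the RefSeq table, the first listed start being used. The median ratio of observed to expected CpG was 0.83 in the 821 high genes, 0.81 in the 1253 intermediate, 0.74 in the 1438 low and 0.60 in the 3033 at background. The range between the quartiles ran from 0.67 to 0.96 in high genes and from 0.26 to 0.82 at background, so the bands overlap widely. The letters TATAAA, on either strand, were in 9.38% of high, 6.30% of intermediate, 8.07% of low and 13.52% of background promoters, in 10.42% of the 6545 together and in 14.16% of all 27025 promoters of the table. GGAAGT, letters that hold the core bound by ETS factors, was in 36.05% of high, 32.24% of intermediate, 26.77% of low and 23.61% of background promoters. It was in 27.52% of the 6545 together and in 24.1% of all 27025. The octamer ATGCAAAT was in 1.34% of high, 1.12% of intermediate, 1.95% of low and 1.65% of background promoters, and in 1.57% of the 6545. Genes of 1 array are not independent replicates, so these shares carry no test. The bright B cell groups did not share one composition: the median CpG ratio was 0.18 over 10 class II pathway promoters, 0.34 over 15 surface protein promoters and 0.88 over 13 promoters of B cell transcription factors. Nor was a low ratio particular to bright groups, since it was 0.23 over 9 promoters of the T cell list, mostly at background here.

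**Figure D5:**
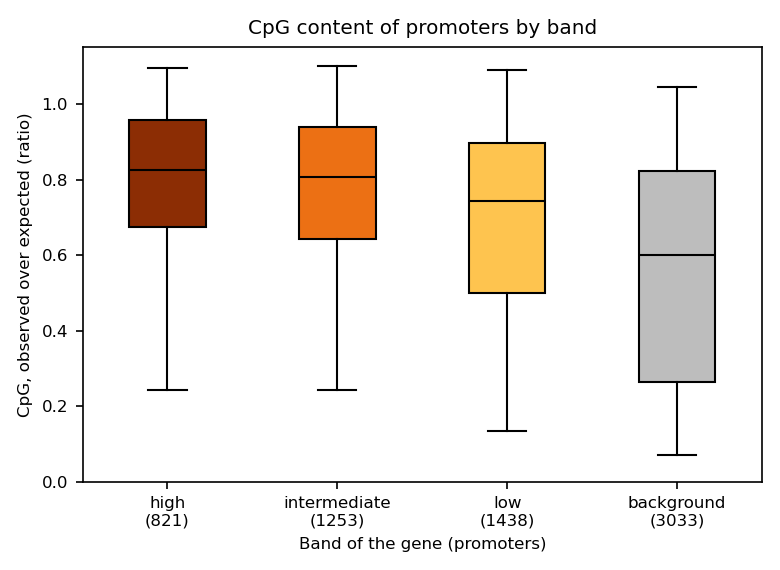
Observed over expected CpG in the 300-base promoter of 6545 genes, by band on the untreated array; boxes are quartiles with the median, whiskers the 5th and 95th percentile. Medians fall from 0.83 in high genes to 0.60 at background, with wide overlap.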

How the data were processed

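RNA of untreated LNC cells was measured on 1 Affymetrix Murine Genome U74 array (array A, version 1). The authors deposited intensity values on a linear scale, and the software behind them is not given in the sources used. Their mean with 2% removed from each end is 1500 on this array, and the values were used as deposited, since ranks do not change with scaling. The floor is 2 times 1.4826 times the median size of the values below 0.

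Symbols came from the platform annotation and were updated by gene identifier to RefSeq (10257 of 10276 matched), 363 probe sets with several symbols and 1949 with none listed stayed unnamed, and suffixed probe sets (2791) were kept. The 49 gene lists and the markers were chosen with earlier results of these data known. Any list member may be named, whatever its level, and so may the 25 brightest probe sets with 1 symbol. Floor and bands were tried on simulated arrays with normally distributed noise. Values of the real array spread further below 0, with 568 below minus the floor and the lowest at -8169.1. The simulation therefore cannot tell how well the floor separates noise on this array. Python 3.11.15, numpy 2.4.6 and pandas 2.3.3 were used. Alternatives were floors of 1 and 3 robust standard deviations, no suffixed probe sets, the dimmest probe set of a gene, and ranks among genes.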

Additional observations from a re-analysis of the deposited data

Results flagged for a closer look

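Some of the array's own control probe sets, which were not ranked, gave signal above the noise floor of 491.9. A control probe set for Il10 read 3391, beside 5162 for the ranked probe set of this gene. The control for the 3-prime end of the transferrin receptor read 1414, with 204 and 54 for its 5-prime end and middle. Its ranked probe sets, those of Tfrc, read 8578 and 751. The 5-prime control for pyruvate carboxylase read 538 and a control for the yeast gene URA3, which mouse cells lack, 551, both slightly over the floor. The controls for 18S ribosomal RNA read 7690.2 at the 3-prime end, 4463 at the 5-prime end and 1009 in the middle, a 3-prime over 5-prime ratio of 1.72. Actin gave 0.92 and Gapdh 1.007, but their controls read between 157461 and 171230.1, close to the highest value on the array. Whether ratios at such intensities can show a difference between the ends was not tested. A pair of controls named for the B2 repeat read 14534 and 159669, and one named for the B1 repeat 19158. Controls of the sense strand exceeded the floor in 11 of 15 cases, up to 3536.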

How the results depend on the processing

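With the floor at 1 or 3 robust standard deviations, 246.0 or 737.9, the genes above it numbered 5153 or 3739 against 4317. Without suffixed probe sets they numbered 3897 of a smaller set, and with the dimmest probe set of each gene 3600. Members of the lists above the floor ranged from 507 to 698 around 613, and those in the top 10% fell from 266 to between 211 and 250. No total moved by more than 1.5 times, while counts of single lists did so in up to 9 of 49 lists per setting, mostly short ones. Among NK genes the count of 1 above the floor became 0 with the higher floor, and the T cell count of 2 became 5 with the lower. With the dimmest probe set Ighm was at background, at -516, and B cell transcription factors had 2 rather than 5 high members, and without suffixed probe sets Flt3 and Actc1 had no value. There is 1 array, so no value has a biological error, and values within the floor have no order.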

Other observations

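Several genes outside the lists were bright, and they were chosen after their values were seen. Ctse, which encodes the aspartic protease cathepsin E, read 94624 and 62790 in suffixed probe sets, at ranks 69 and 97, and 7 in the remaining one, which has no suffix. Napsa, the gene of the related protease napsin A, read 51590 at rank 120 in its single probe set. Srgn, the proteoglycan of secretory granules, read 42311, Ptprcap, a protein bound to CD45, 27351, Plp2 26410 and Gpr65, a receptor that senses acid, 20733.

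Probe sets of immunoglobulin variable genes were split between very bright and background. Of 25 κ probe sets with 1 symbol 6 were high and 12 at background, and of 9 heavy chain probe sets 3 were high and 5 at background. After Igkv6-23 and Igkv4-70 came Igkv4-91 at 93648, Igkv4-68 at 48076 and Igkv4-59 at 44187. Igh-VS107, whose family includes the variable gene of antibodies to phosphorylcholine that B-1 cells are known to make, read 60240.5, 29664 and 256. Variable genes resemble each other, and which rearrangement the line carries was not tested.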
